A study of Mus musculus with 22 samples.

Results

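Feedback inhibitors are genes that an inflammatory signal switches on, or keeps at hand, to limit that same signal. The 9 described here were chosen by name as inhibitors of Toll-like receptor (TLR) and cytokine signalling and make up 9 of the 22383 genes tested: Tnfaip3, Tnip1, Tnip3 and Cyld, which act on ubiquitin chains, Irak3 and Tollip, which act close to the receptor, and Socs1, Socs2 and Socs3 of the suppressor of cytokine signalling family. A probe was taken as theirs when its RefSeq accession belongs to the gene, which gave 16 probes, and a gene with several was read from the one that was brightest on average. All 16 were well above background on all 22 arrays, so no member is missing and no level is only a bound.

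RNA of bone marrow-derived macrophages (BMDM), macrophages grown from mouse bone marrow with the growth factor M-CSF, was hybridised to 1-colour microarrays. The marrow came from male C57BL/6 mice, 10 to 14 weeks old, that were wild-type (wt), lacked the protein kinase MK2 (MK2-/-) or lacked MK2 and its relative MK3 (MK2/3-/-), and the cells, kept without M-CSF beforehand, were held for 360 min in medium or in medium with 100 ng/ml lipopolysaccharide (LPS), the bacterial product that TLR4 senses. There were 4 arrays of wt medium, 3 of wt LPS, 4 of MK2-/- medium, 4 of MK2-/- LPS, 3 of MK2/3-/- medium and 4 of MK2/3-/- LPS. All arrays of a genotype lay on 1 slide, so in a direct comparison of genotypes the slide cannot be told apart from the genotype, while medium and LPS of a genotype shared a slide. The methods call the experiments behind the arrays independent, and neither they nor the labels say which animals the arrays of a group came from, so p-values measure the spread between these arrays.

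In macrophages, TLR4 signals through MyD88 and the IRAK kinases to the ubiquitin ligase TRAF6, the kinase TAK1 and NF-kB, and a second wave of secreted cytokines and interferons signals through JAK kinases and STAT factors. Tnfaip3 encodes A20, a ubiquitin-editing enzyme that is itself an NF-kB target and works with the ABIN proteins encoded by Tnip1 and Tnip3. Cyld encodes a deubiquitinase that trims the chains on which NF-kB signalling is built. Irak3 encodes IRAK-M, a member of the IRAK family without kinase activity that holds back the active IRAKs, and Tollip encodes an adaptor that binds IRAK and sorts receptors to the endosome. SOCS1 and SOCS3 bind JAK kinases and cytokine receptors, and SOCS2 is best known as a brake on growth hormone signalling. MK2 and MK3 are kinases below p38 that act mainly on the stability and translation of cytokine mRNAs, and the comparisons below ask how the mRNAs of these brakes stood in their absence.

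The arrays ranged from 32.7 to 108 in median processed signal, with 61.1 to 82.7% of probes well above background. Mapkapk2, the gene of MK2, averaged 11.90 ± 0.77 log2 signal in wt medium against 8.88 ± 0.13 in MK2-/- medium (SD, n = 4 each) and 14.89 ± 0.55 (n = 3) in wt LPS against 11.61 ± 0.30 (n = 4) in MK2-/- LPS. Mapkapk3, the gene of MK3, averaged 8.0 ± 0.41 (n = 4) in MK2/3-/- LPS against 12.12 ± 0.16 (n = 3) in wt LPS, and 11.16 ± 0.23 (n = 3) against 13.13 ± 0.26 (n = 4) in medium. Both therefore followed the labels. Some arrays stood apart. Replicate 3 of MK2-/- medium and of MK2-/- LPS had mean log2 signals of 2.33 and 2.07 over 4 Y-linked genes, against 6.86 to 8.82 on the other arrays, which goes against the label male. MK2-/- LPS replicate 3 also had 2927 spots marked as non-uniform or outlying, against a median of 158 over the arrays. It was the array with the highest median signal (108) and the highest share of probes above background (82.7%). Replicate 4 of wt medium was high in LPS-responsive members, as given below. Of 7 macrophage markers Cd68 had no probe joined to it by accession. The other 6 passed the filter on low signals and were above background on every array, with summed log2 signals of 17.93 to 19.40 over all arrays. The dendritic cell list summed to 15.40 to 17.22, of which Siglech alone reached 15.35 to 17.21. The fibroblast list varied most, from 9.47 to 16.66, and is given beside Socs2. Neutrophil markers summed to 10.95 to 12.65, T cell markers to 9.93 to 12.29, B cell markers to 7.91 to 10.53 and mast cell markers to 8.86 to 10.67.

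Before the levels, the stretches just upstream of the genes' starts are shown for the members whose stretch held a match to a motif of the pathways named above, because most of these genes moved together with LPS. The search covered RefSeq windows of the mouse build GRCm38.p6, 250 bases before to 50 bases after each annotated start, on both strands, for the kappaB consensus of NF-kB and for the STAT motif TTCNNNGAA, where N is any base. Of 32851 windows of the same length 4.51% held the kappaB consensus and 8.30% the STAT motif. The 9 members had 10 windows, with 2 starts each for Tnfaip3 and Irak3 and no entry for Socs2, and 4 of the 10 held a kappaB match and 2 a STAT match. Capitals mark the matches in the 200 bases before the start, read 5′ to 3′ towards the gene.
Tnfaip3, chr10:19015411-19015610, minus strand: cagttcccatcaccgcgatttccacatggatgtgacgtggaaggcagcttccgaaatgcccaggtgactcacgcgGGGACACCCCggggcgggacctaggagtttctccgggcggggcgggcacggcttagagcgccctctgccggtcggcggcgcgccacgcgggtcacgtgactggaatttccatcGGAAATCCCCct
Tnip1, chr11:54962941-54963140, minus strand: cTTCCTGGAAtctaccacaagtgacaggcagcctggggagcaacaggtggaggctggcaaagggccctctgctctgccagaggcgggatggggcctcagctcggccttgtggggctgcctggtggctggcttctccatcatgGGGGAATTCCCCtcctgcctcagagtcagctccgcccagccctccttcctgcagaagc
Tnip3, chr6:65590198-65590397, plus strand: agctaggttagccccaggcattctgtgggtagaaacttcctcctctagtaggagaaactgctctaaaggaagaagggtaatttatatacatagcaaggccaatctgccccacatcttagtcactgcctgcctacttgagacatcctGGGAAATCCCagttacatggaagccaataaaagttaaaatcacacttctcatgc
Cyld, chr8:88696828-88697027, plus strand: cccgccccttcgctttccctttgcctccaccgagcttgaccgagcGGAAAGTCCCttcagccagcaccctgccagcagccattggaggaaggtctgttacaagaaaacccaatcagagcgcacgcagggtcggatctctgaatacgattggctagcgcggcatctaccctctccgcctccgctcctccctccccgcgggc
Socs3, chr11:117969367-117969566, minus strand: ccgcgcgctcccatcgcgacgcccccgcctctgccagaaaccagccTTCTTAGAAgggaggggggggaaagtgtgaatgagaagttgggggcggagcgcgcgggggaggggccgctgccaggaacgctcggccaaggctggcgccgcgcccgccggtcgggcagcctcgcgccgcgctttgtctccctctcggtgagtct
Tnfaip3 held separate kappaB matches, Tnip1 a run of overlapping kappaB matches and, further upstream, a STAT match, and Tnip3 a kappaB match whose letters pass on both strands. In Cyld the match was on the opposite strand, and in Socs3 it was to the STAT motif. A match is a description of the letters and not a measured binding site, and the windows of Irak3, Tollip and Socs1 held neither motif, which says only that those letters are not in those windows.

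LPS moved 8 of the 9 members in wt macrophages, and 7 of them upwards. Socs3, Socs1 and Tnfaip3 rose most, by 103-fold, 66.0-fold and 58.6-fold. Tnip3 rose 14.6-fold, Tnip1 6.14-fold, Irak3 4.68-fold and Tollip 1.38-fold, whereas Cyld was 4.61-fold lower and Socs2 did not pass the test. Passing means an adjusted p under 0.05 in 1 limma fit of the 6 group means, adjusted over all genes by the Benjamini-Hochberg method, and 42.1% of all 22383 genes passed in wt, so a pass alone is common. The median log2 change of the members was 2.62 against -0.04 over all genes, of which 4164 passed as higher and 5259 as lower. Rises and falls offset each other in the median over all genes, so it does not show how common a change of that size is. In MK2-/- and in MK2/3-/- macrophages 7 members passed, 6 higher and Cyld lower, against 44.6% and 48.2% of all genes, with members' medians of 2.53 and 2.37 against -0.01 and 0.01. Scaling the arrays to their 75th percentile instead of quantile normalisation moved the median over all genes to 0.28, 0.26 and 0.29 in wt, MK2-/- and MK2/3-/-. Under it each member had the same sign as here, and 8, 9 and 7 members passed. Over all genes that scaling passed 6220 as higher and 4218 as lower in wt, 5100 and 4688 in MK2-/-, and 5712 and 4859 in MK2/3-/-.

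**Figure D1:**
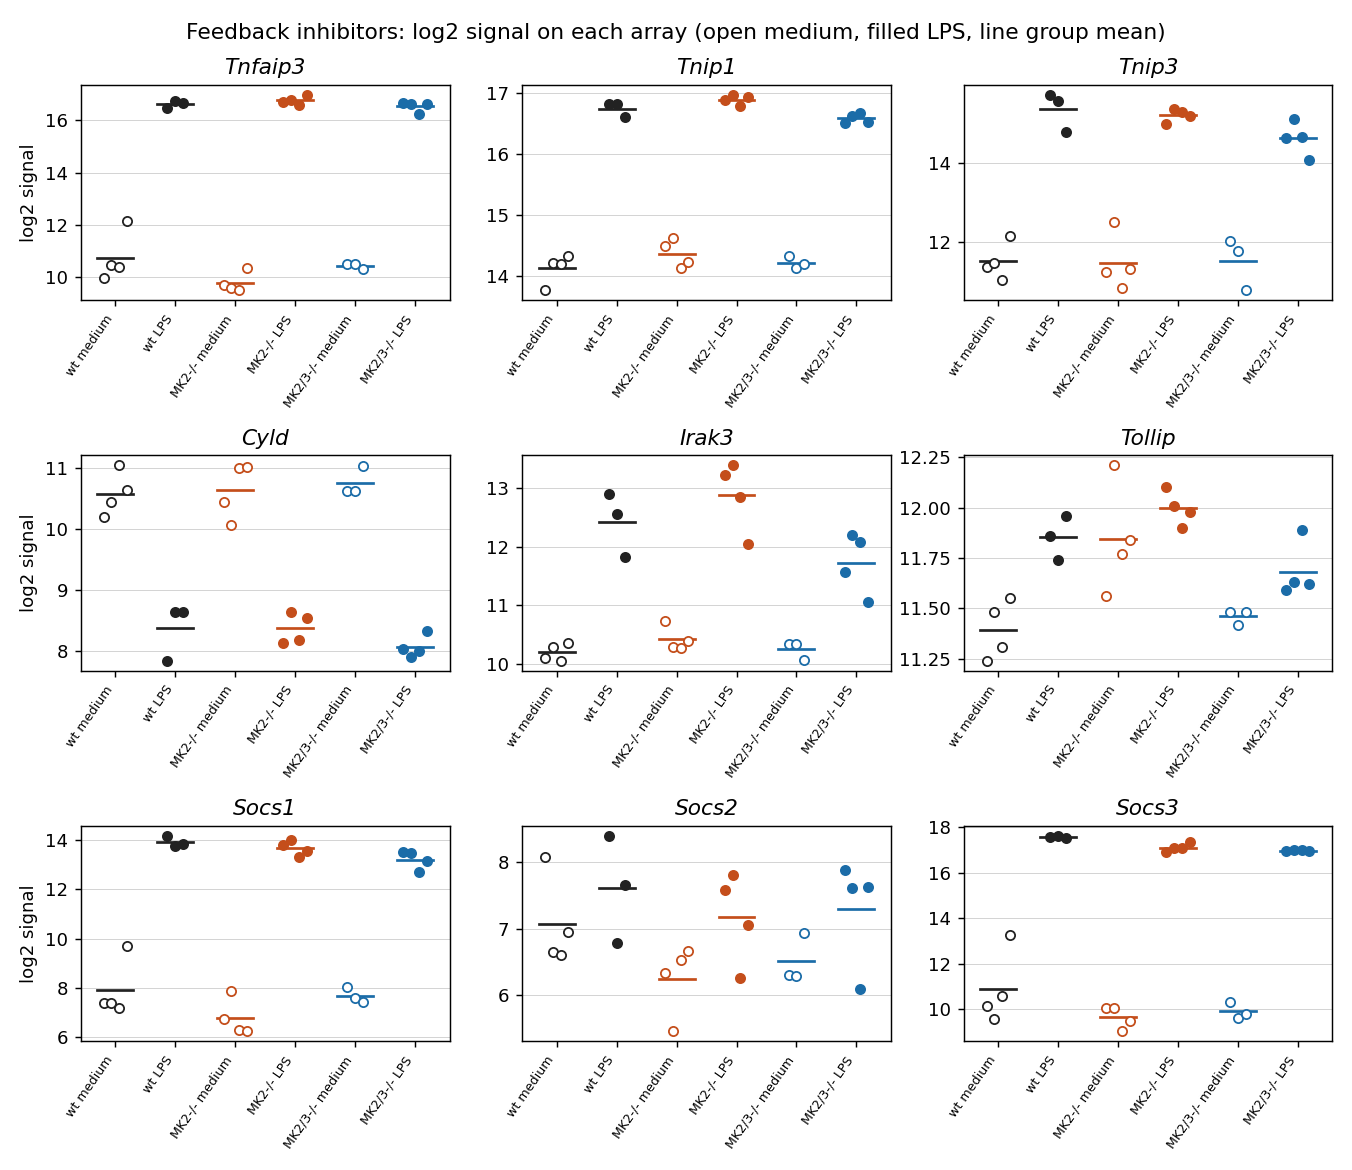
Each panel plots the log2 signal (vertical axis) of a member on every array, by genotype and treatment on the horizontal axis, with open points for medium, filled points for LPS and a line at the group mean. All LPS points of Tnfaip3, Tnip1, Tnip3, Irak3, Socs1 and Socs3 lie above, and all those of Cyld below, the medium points of every genotype, and wt medium replicate 4 stands high in Tnfaip3 (12.15), Socs1 (9.68) and Socs3 (13.25).

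Among the ubiquitin regulators, A20 gave the clearest response. Tnfaip3 measured 9.97, 10.47, 10.41 and 12.15 in wt medium and 16.48, 16.75 and 16.65 in wt LPS. In MK2-/- it measured 9.69, 9.60, 9.50 and 10.35 in medium and 16.71, 16.78, 16.60 and 16.98 with LPS, and in MK2/3-/- 10.52, 10.5 and 10.32 against 16.66, 16.62, 16.23 and 16.61. The LPS arrays of all genotypes thus lay close together and far above every medium array, and replicate 4 was the highest medium array. The log2 rise was 5.87 (SE 0.35, adjusted p = 5.51e-10) in wt, 6.98 (SE 0.32, adjusted p = 1.28e-11) in MK2-/- and 6.08 (SE 0.35, adjusted p = 1.41e-10) in MK2/3-/-. Without wt medium replicate 4 the rise in wt was 6.34 (SE 0.21).

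The ABIN genes differed in how far they rose. Tnip1, whose product carries A20 to ubiquitin chains, was already high in medium, at 13.76 to 14.62 over all genotypes, and lay at 16.50 to 16.97 with LPS. Its log2 rise was 2.62 (SE 0.16) in wt, 2.53 (SE 0.14) in MK2-/- and 2.37 (SE 0.16) in MK2/3-/-, and its other probe gave 2.63, 2.57 and 2.55. The estimates of both probes were thus close to each other in each genotype. Under 75th percentile scaling the main probe gave 3.33, 3.34 and 3.25, so the size of the rise depended on the scaling. Tnip3, an ABIN gene known to be inducible, went from 10.76 to 12.49 in medium to 14.08 to 15.73 with LPS. Its log2 rise was 3.87 (SE 0.38), 3.74 (SE 0.35) and 3.11 (SE 0.38) in wt, MK2-/- and MK2/3-/-, and the dimmer of its probes gave larger rises of 4.78, 5.38 and 4.42.

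Cyld was the only member that fell, and it did so on one of its 2 probes. That probe, the brighter one, measured 10.20, 10.43, 11.04 and 10.63 in wt medium against 7.84, 8.64 and 8.64 in wt LPS. In MK2-/- it measured 10.44, 10.07, 10.99 and 11.01 against 8.13, 8.64, 8.18 and 8.54, and in MK2/3-/- 10.61, 10.62 and 11.03 against 8.03, 7.91, 8.0 and 8.32. Every LPS array was below every medium array, with log2 changes of -2.20 (SE 0.26, adjusted p = 1.75e-06), -2.26 (SE 0.24, adjusted p = 2.64e-07) and -2.69 (SE 0.26, adjusted p = 8.01e-08). The other probe, which the array annotates to another transcript of the gene, lay at 7.93 to 8.91 in wt medium and 7.87 to 8.99 in wt LPS, with log2 changes of 0.09 (SE 0.26), 0.18 (SE 0.24) and -0.04 (SE 0.26) and adjusted p of 0.83, 0.602 and 0.909 in a limma fit over all probes. The files do not say which part of the transcripts each probe covers, so the fall of Cyld is a fall of the signal of 1 probe.

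**Figure D2:**
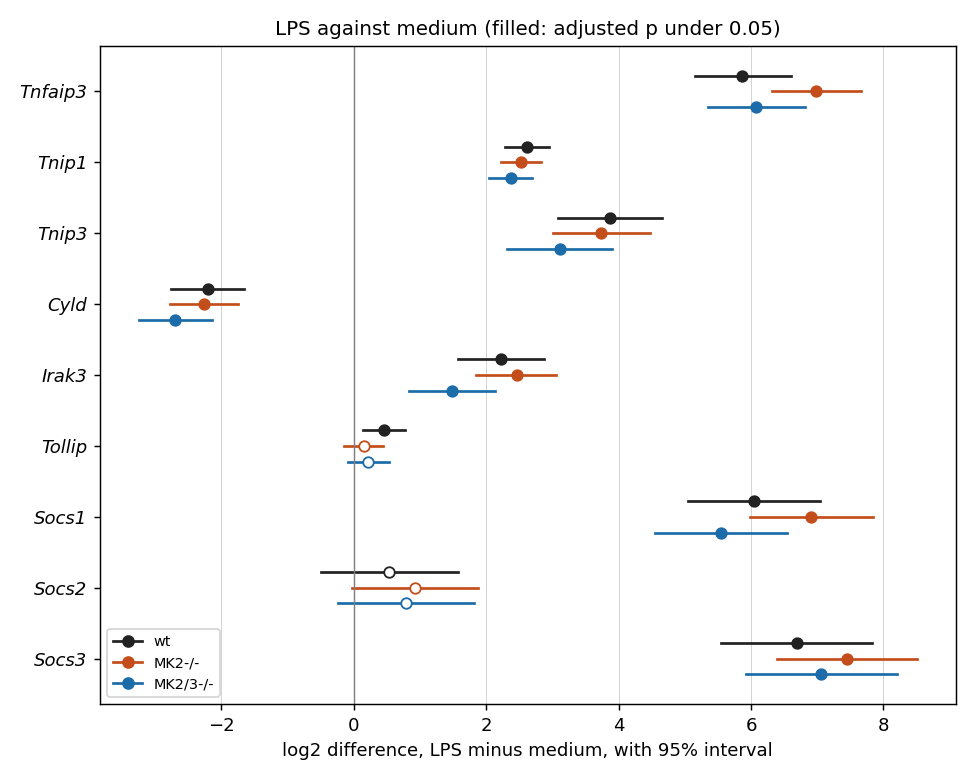
The horizontal axis gives the log2 difference, LPS minus medium, of each member (vertical axis) with its 95% interval from the limma fit, in 3 colours for the genotypes, filled where the adjusted p is under 0.05. The intervals of the 3 genotypes overlap for every member, Socs1, Socs3 and Tnfaip3 lie between 5.55 and 7.45, and Cyld lies below 0.

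Near the receptor, Irak3 rose and Tollip hardly moved on its brightest probe. Irak3 measured 10.10, 10.29, 10.05 and 10.35 in wt medium and 12.90, 12.55 and 11.82 in wt LPS, a log2 rise of 2.23 (SE 0.31, adjusted p = 1.19e-05). The rise was 2.46 (SE 0.29, adjusted p = 8.42e-07) in MK2-/- and 1.48 (SE 0.31, adjusted p = 5.85e-04) in MK2/3-/-, from medium levels of 10.27 to 10.73 and 10.07 to 10.34. Tollip lay at 11.24 to 11.55 in wt medium and 11.74 to 11.96 in wt LPS, a log2 rise of 0.46 (SE 0.15, adjusted p = 0.02) that did not pass without wt medium replicate 1 (0.41, adjusted p = 0.0574) or without wt LPS replicate 3 (0.41, adjusted p = 0.0827). In MK2-/- and MK2/3-/- the same probe gave 0.15 (adjusted p = 0.425) and 0.22 (adjusted p = 0.246). The 2 dimmer Tollip probes, annotated to the same transcript, passed in every genotype, at 1.20, 1.02 and 1.61 for the one and 0.86, 1.38 and 0.95 for the other. The probes of Tollip thus gave different sizes of the LPS response, and which of them is nearer to the transcript's level cannot be read from the arrays.

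**Figure D3:**
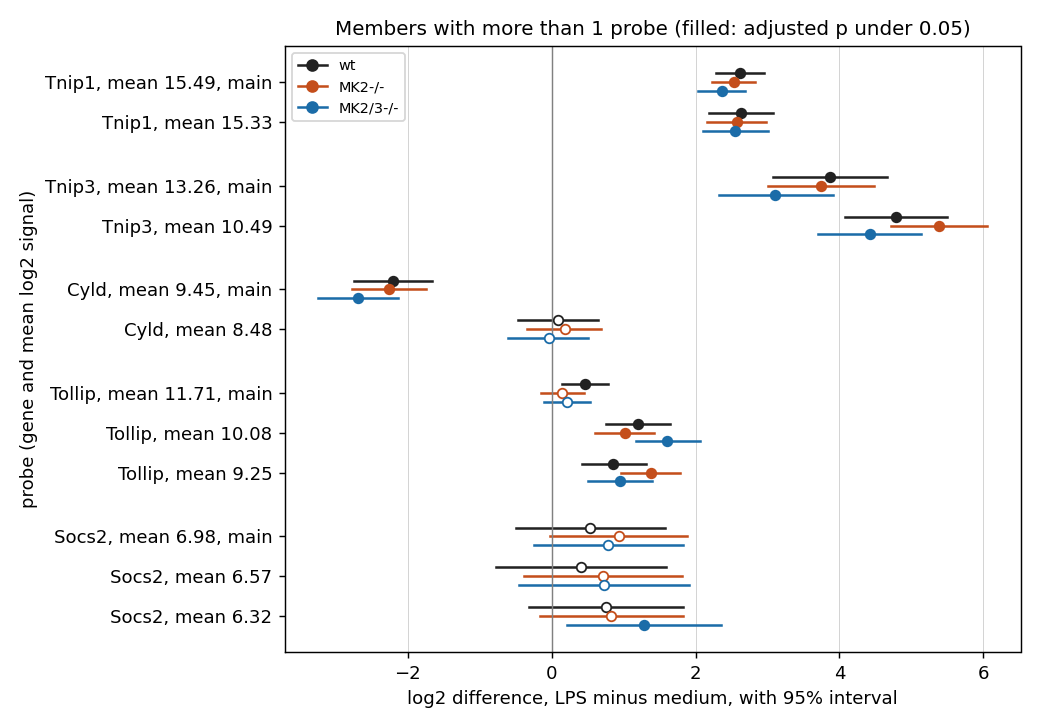
Each row is a probe of a member with more than 1 probe, named with its mean log2 signal, and the horizontal axis gives the log2 difference, LPS minus medium, with its 95% interval in each genotype, filled where the adjusted p over all probes is under 0.05. The probes of Tnip1 lie together at 2.37 to 2.63, those of Cyld lie apart at -2.69 to -2.20 and at -0.04 to 0.18, and the dimmer Tollip probes exceed the brightest one.

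Among the SOCS genes, Socs1 and Socs3 had the largest rises with Tnfaip3, and Socs2 did not pass on its brightest probe. Socs3, which silences receptors of the IL-6 family, measured 10.13, 9.58, 10.59 and 13.25 in wt medium and 17.56, 17.63 and 17.54 in wt LPS. It measured 10.06, 10.06, 9.03 and 9.48 against 16.91, 17.08, 17.08 and 17.35 in MK2-/-, and 10.33, 9.60 and 9.79 against 16.95, 17.01, 16.98 and 16.95 in MK2/3-/-. The LPS arrays of a genotype were close to each other, while the wt medium group was spread by its replicate 4. The log2 rises were 6.69 (SE 0.54, adjusted p = 1.56e-08) in wt, 7.45 (SE 0.50, adjusted p = 6.84e-10) in MK2-/- and 7.06 (SE 0.54, adjusted p = 4.13e-09) in MK2/3-/-, and 7.48 (SE 0.28) in wt without that array. Socs1, the brake on interferon signalling, measured 7.38, 7.38, 7.18 and 9.68 in wt medium and 14.19, 13.79 and 13.87 in wt LPS. Its log2 rises were 6.05 (SE 0.48), 6.91 (SE 0.44) and 5.55 (SE 0.48) in wt, MK2-/- and MK2/3-/-, and 6.64 (SE 0.34) in wt without replicate 4 of the medium group.

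Socs2 was the dimmest member and its groups overlapped. It measured 8.08, 6.65, 6.61 and 6.96 in wt medium and 8.40, 6.78 and 7.66 in wt LPS. The values were 6.33, 5.46, 6.53 and 6.66 against 7.58, 7.81, 6.26 and 7.06 in MK2-/-, and 6.31, 6.29 and 6.94 against 7.89, 7.61, 6.09 and 7.63 in MK2/3-/-. The log2 differences were positive in all 3 genotypes, at 0.54 (95% interval -0.49 to 1.57), 0.93 (-0.02 to 1.88) and 0.79 (-0.24 to 1.82), with adjusted p of 0.414, 0.107 and 0.2, so an increase of the size seen for Irak3 in wt lies outside the intervals but a smaller one does not. The 2 dimmer Socs2 probes gave 0.41, 0.71 and 0.73 for the one and 0.76, 0.83 and 1.28 for the other in wt, MK2-/- and MK2/3-/-, of which the last passed (adjusted p = 0.0458). The call depended on the probe and on single arrays and settings. Without MK2-/- LPS replicate 3, the array with the most marked spots, Socs2 passed in MK2-/- (1.24, adjusted p = 0.039). Without MK2/3-/- LPS replicate 3 it passed in MK2/3-/- (1.20, adjusted p = 0.0429), and 75th percentile scaling gave 1.1 (adjusted p = 0.0456) in MK2-/-.

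The level of Socs2 in medium went along with fibroblast markers. The summed signal of the 5 fibroblast markers, all of which passed the filter and 4 of which were above background on all arrays, ranged from 11.60 to 16.66 in wt medium, 13.55 to 15.90 in wt LPS, 10.57 to 14.70 in MK2-/- medium, 11.60 to 14.23 in MK2-/- LPS, 9.47 to 15.54 in MK2/3-/- medium and 10.76 to 14.89 in MK2/3-/- LPS. Over the 11 medium arrays Socs2 rose with that sum, with Pearson's r = 0.809 (permutation p = 0.00052, adjusted 0.0016) and Spearman's rho = 0.936 (permutation p = 0.00013, adjusted 0.00039), and r was 0.781 without the 2 arrays farthest from the median, wt replicate 1 and MK2/3-/- replicate 1. Over the 11 LPS arrays no such relation was seen, with r = 0.0741 (permutation p = 0.83) and rho = 0.0455 (permutation p = 0.91), and r was -0.127 without the 2 farthest. Over all 22 arrays r was 0.439 (permutation p = 0.042, adjusted 0.062) and rho 0.486 (permutation p = 0.023, adjusted 0.035), and r dropped to 0.307 without the 2 farthest. These are two-sided tests adjusted over the 3 relations computed, and the difference between medium and LPS arrays was not tested. The permutations ignored genotype and slide, and over all 22 arrays also treatment. The adjustment does not cover the choice of this marker list, the one that varied most, or of this member. The sum was taken over unlogged signals, and its brightest markers were Col1a2 and Col1a1, which reached 16.08 and 14.99. Col3a1, Pdgfrb and Dcn reached no more than 10.87, 10.57 and 9.03, and no marker was set against Socs2 by itself. In bulk RNA fewer cells of a type and less RNA per cell cannot be told apart, and the part of other cells in the level of Socs2 was not tested.

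**Figure D4:**
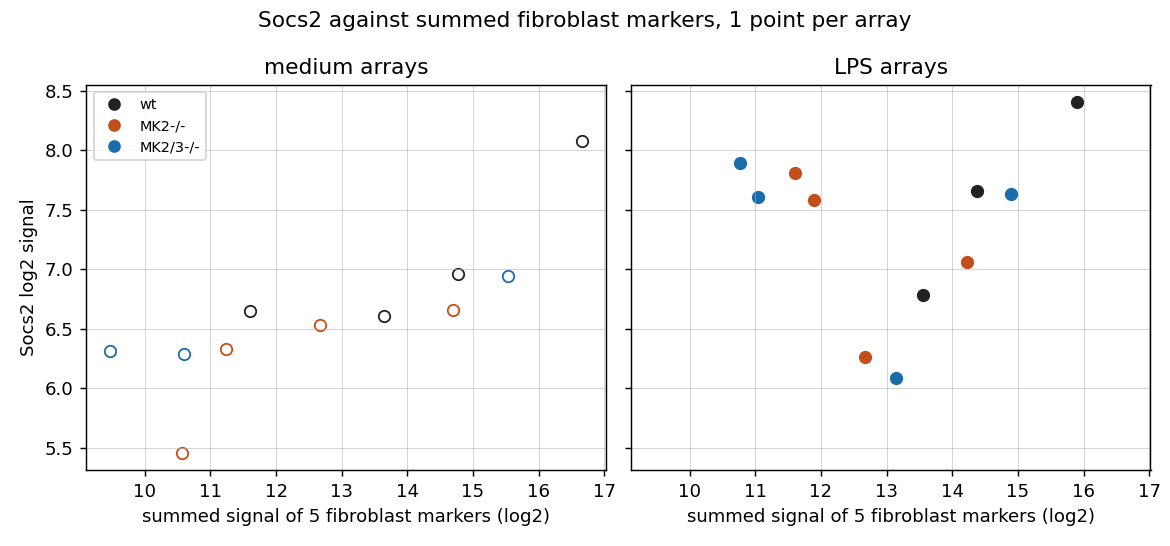
Each point is an array, with the log2 of the summed signal of 5 fibroblast markers on the horizontal axis, the Socs2 log2 signal on the vertical axis, colours for genotypes and separate panels for medium and LPS. In medium Socs2 goes from 5.46 to 8.08 along the marker sum (r = 0.809), and with LPS the 2 arrays of lowest marker sum (10.76 and 11.04) lie at 7.89 and 7.61.

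Between genotypes in LPS few of these genes passed the test. Of the 9 members, none passed between MK2-/- and wt under LPS, where 11.6% of all genes did, and none between MK2/3-/- and wt, where 23.6% of all genes did. At an unadjusted p under 0.05 the counts were 0 and 1 of the members, against 6601 and 8202 of all 22383 genes. The 95% intervals of the log2 differences for Tnfaip3 were -0.58 to 0.87 for MK2-/- against wt and -0.82 to 0.63 for MK2/3-/- against wt, those for Tnip1 -0.18 to 0.48 and -0.49 to 0.16, and those for Cyld -0.55 to 0.54 and -0.86 to 0.24. For these genes a difference as large as their LPS response therefore lay outside the intervals. Between MK2/3-/- and MK2-/- under LPS 1 member passed, against 13.5% of all genes, and it was Irak3.

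Under LPS the mean of Irak3 was lower in MK2/3-/- than in MK2-/-, a comparison in which slide and genotype cannot be told apart. Irak3 measured 13.22, 13.39, 12.84 and 12.05 in MK2-/- LPS and 11.56, 12.20, 12.08 and 11.05 in MK2/3-/- LPS, with wt LPS in between at 12.90, 12.55 and 11.82. The lowest MK2-/- array lay below the highest MK2/3-/- array, so the groups overlapped. The log2 difference was -1.15 (SE 0.29, 95% interval -1.76 to -0.55, adjusted p = 0.0127), and it was -0.98 (adjusted p = 0.0513) without MK2-/- LPS replicate 2 and -1.15 (SE 0.36, adjusted p = 0.113) in a fit of those 2 groups alone. In medium Irak3 differed by -0.17 (95% interval -0.83 to 0.48) between the same genotypes. The LPS response of Irak3 itself was 0.98 log2 units smaller in MK2/3-/- than in MK2-/- (difference -0.98, SE 0.42, 95% interval -1.87 to -0.09), which did not pass over all genes (adjusted p = 0.53). Against wt, Irak3 under LPS was -0.70 (SE 0.31, adjusted p = 0.111) in MK2/3-/- and 0.45 (SE 0.31, adjusted p = 0.347) in MK2-/-, and the MK2/3-/- difference passed at -1.08 (adjusted p = 0.0197) under 75th percentile scaling, which moved the median of all genes from -0.02 to 0.17.

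The named genes with the pattern most like that of Irak3 over the 22 arrays were Mettl6, an RNA methyltransferase gene (r = 0.971), Fcgr2b, the inhibitory Fc receptor (r = 0.961), and Alpk2, an alpha-kinase gene (r = 0.959). Over the 11 LPS arrays alone r was 0.94, 0.92 and 0.81 for the 3 genes, and over the 11 medium arrays 0.03, 0.87 and 0.23. Under LPS, MK2/3-/- against MK2-/- gave log2 differences of -0.67 (adjusted p = 0.0131) for Mettl6, -1.18 (adjusted p = 0.0684) for Fcgr2b and -1.24 (adjusted p = 3.67e-04) for Alpk2. These genes were picked for their likeness, so their values describe them and test nothing about Irak3.

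**Figure D5:**
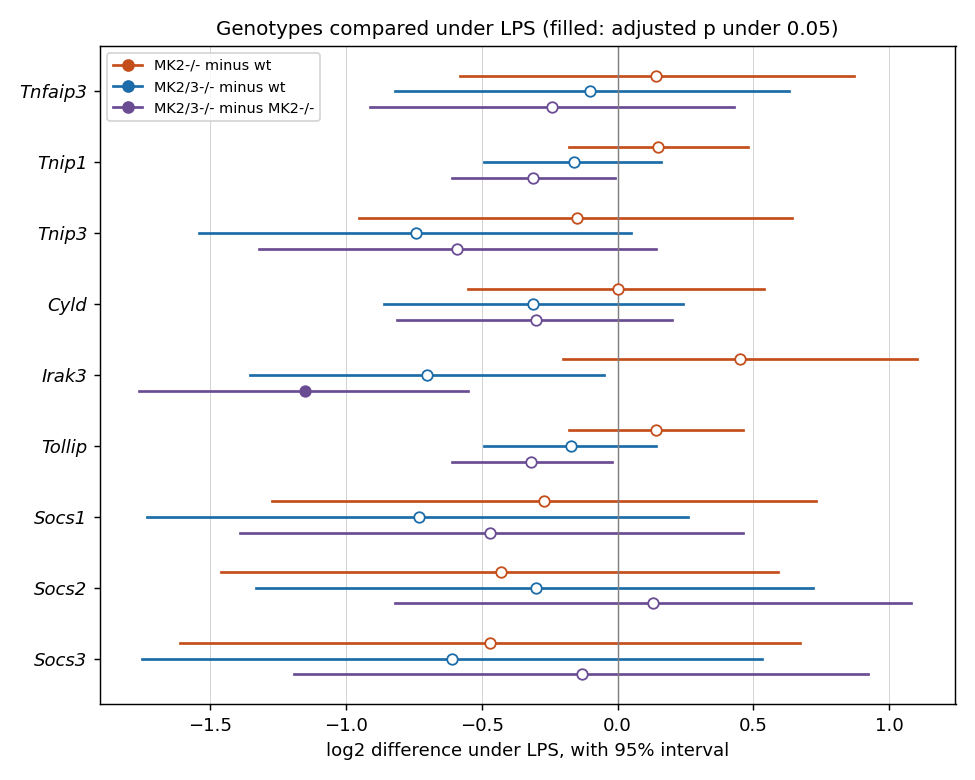
The horizontal axis gives the log2 difference between genotypes under LPS for each member (vertical axis) with its 95% interval from the limma fit, with a colour for each pair of genotypes and a filled point where the adjusted p is under 0.05. Irak3 in MK2/3-/- against MK2-/- (-1.15) is the filled point, and the intervals of Socs1, Socs2 and Socs3 are the widest.

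Socs3 was highest in wt under LPS, without passing against either mutant genotype in the main fit. Its wt LPS arrays, at 17.54 to 17.63, lay above all MK2-/- LPS arrays, at 16.91 to 17.35, and above all MK2/3-/- LPS arrays, at 16.95 to 17.01. How many of all genes were free of overlap between these groups was not counted, so this is not read as particular to Socs3. Slide and genotype cannot be told apart here. The log2 differences were -0.47 (SE 0.54, adjusted p = 0.597) and -0.61 (SE 0.54, adjusted p = 0.446). The standard error came from the spread of Socs3 over all 22 arrays, in which the SD was 1.63 in wt medium (n = 4) against 0.05 in wt LPS (n = 3) and 0.03 in MK2/3-/- LPS (n = 4). Without wt medium replicate 4 the MK2/3-/- difference had an SE of 0.26 (adjusted p = 0.101), and in a fit of those 2 groups alone an SE of 0.18 (adjusted p = 0.0797). The methods' t-test, which uses each pair of groups alone, gave 4.52e-06 unadjusted and 0.0337 after adjustment over all genes by the Benjamini-Hochberg method. Whether Socs3 passed thus turned on the test and on the arrays that set its error, and its sign was the same in each.

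Of the remaining members, none passed between genotypes under LPS on its main probe. Socs1 lay at 13.79 to 14.19 in wt LPS and 12.72 to 13.53 in MK2/3-/- LPS, without overlap, with a log2 difference of -0.73 (SE 0.48, adjusted p = 0.278). Tnip3 differed by -0.74 (SE 0.38, adjusted p = 0.162) between MK2/3-/- and wt, which passed under 75th percentile scaling at -0.94 (adjusted p = 0.0319). Between MK2/3-/- and MK2-/-, Tnip1 (16.50 to 16.67 against 16.78 to 16.97) and Tollip (11.59 to 11.89 against 11.90 to 12.10) did not overlap, at -0.31 (adjusted p = 0.162) and -0.32 (adjusted p = 0.147). For Socs1, Tnip1 and Tollip too, the share of all genes without overlap was not counted. The second probes went their own way in places. The Cyld probe that had not moved with LPS was lower in MK2/3-/- than in MK2-/- under LPS (-0.78, SE 0.24, adjusted p = 0.0422), and a dimmer Tollip probe was higher in MK2/3-/- than in wt under LPS (0.86, SE 0.21, adjusted p = 0.00712) while the main probe gave -0.17 (95% interval -0.49 to 0.14).

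Ordered by level, the groups of the 6 LPS-induced genes with large changes fell into an upper block of the 3 LPS groups and a lower block of the 3 medium groups. Neighbours within a block overlapped, apart from wt LPS above MK2-/- LPS in Socs3. The order within the upper block was MK2-/-, wt, MK2/3-/- for Tnfaip3, Tnip1 and Irak3 and wt, MK2-/-, MK2/3-/- for Tnip3, Socs1 and Socs3. MK2/3-/- LPS was thus the lowest LPS group in all 6, by means that did not pass between genotypes except for Irak3. How many other genes showed these blocks or this order was not counted, so neither is read as particular to the members. Over all genes 3131 passed as lower and 2150 as higher in MK2/3-/- than in wt under LPS. Against MK2-/- under LPS 1299 passed as lower and 1731 as higher.

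In medium no member passed between genotypes. The background was 8.82% of genes for MK2-/- against wt, 2.02% for MK2/3-/- against wt and 2.82% for MK2/3-/- against MK2-/-. An unadjusted p under 0.05 was reached by 4, 0 and 1 members and by 5798, 3784 and 3358 of all 22383 genes. The nearest to passing was Tollip, at 11.56 to 12.21 in MK2-/- against 11.24 to 11.55 in wt, a log2 difference of 0.45 (SE 0.14, adjusted p = 0.0513) while its dimmer probes gave 0.53 (SE 0.20, adjusted p = 0.103) and -0.65 (SE 0.20, adjusted p = 0.048). Tnfaip3, Socs1 and Socs3 were lower in MK2-/- medium than in wt medium by means of -0.97 (adjusted p = 0.065), -1.14 (adjusted p = 0.112) and -1.23 (adjusted p = 0.132). Without wt medium replicate 4 those differences were -0.50 (adjusted p = 0.143), -0.55 (adjusted p = 0.314) and -0.44 (adjusted p = 0.315).

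How far genotypes differed in their LPS response, a measure in which an additive effect of the slide cancels, was also tested, and none of the 9 members passed. Over all genes limma passed 0% for MK2-/- against wt, 0.679% for MK2/3-/- against wt and 0.067% for MK2/3-/- against MK2-/-. At an unadjusted p under 0.05 there were 1, 0 and 2 members, against 1685, 2545 and 1926 of all 22383 genes. Apart from Irak3 these members were Tnfaip3, whose response was larger in MK2-/- than in wt by 1.11 (SE 0.47, adjusted p = 0.646), and Socs1, whose response was smaller in MK2/3-/- than in MK2-/- (-1.37, SE 0.65, adjusted p = 0.578).

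The genes around these inhibitors were read from 4 lists, all of whose members were measured. Their counts with LPS stand against 42.1, 44.6 and 48.2% of all genes passing in wt, MK2-/- and MK2/3-/-, and their medians against -0.04, -0.01 and 0.01 over all genes. Of 12 partners of A20 and of linear ubiquitin, 5 were higher and 2 lower with LPS in wt, 7 and 3 in MK2-/- and 4 and 3 in MK2/3-/-, with list medians of 0.24, 0.73 and 0.40. Under 75th percentile scaling these splits were 6 and 0, 7 and 0, and 5 and 1, so most of the lower calls depended on the scaling. Optn, a ubiquitin-binding adaptor, led the list with rises of 2.05 (SE 0.33), 2.30 (SE 0.31) and 2.00 (SE 0.33) in wt, MK2-/- and MK2/3-/-, and Rnf31, the catalytic subunit of the linear ubiquitin ligase, followed with 2.02, 1.99 and 1.99.

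Of 19 genes from TLR4 to TAK1, 7 were higher and 4 lower in wt, 11 and 4 in MK2-/- and 11 and 4 in MK2/3-/-, with medians of 0.38, 0.58 and 0.48 (8 and 4, 12 and 4, and 11 and 4 under the other scaling). Myd88, the adaptor, rose by 2.40 (SE 0.15) in wt, and Ikbkb, the kinase of the NF-kB inhibitor, by 2.48 (SE 0.16) in MK2-/-. Each also had a higher mean with LPS than in medium in the other genotypes. Tlr4, the LPS receptor, was -2.77 (SE 0.27) in MK2/3-/-. Its mean was also lower with LPS in wt (9.48 against 11.26) and in MK2-/- (9.29 against 11.64). Tab1, a partner of TAK1, fell in all 3 genotypes, with changes of -2.35 (SE 0.23), -3.15 (SE 0.21) and -3.62 (SE 0.23), and in LPS its level lay below that of wt by -0.78 for MK2-/- (adjusted p = 0.0367) and -1.62 for MK2/3-/- (adjusted p = 1.49e-04). Tirap, the adaptor that brings MyD88 to TLR4, was also lower in MK2/3-/- LPS, by -0.91 (adjusted p = 0.0016) against wt and -0.75 (adjusted p = 0.00553) against MK2-/-, and Ly96, the co-receptor MD-2, was higher in MK2-/- LPS than in wt LPS (1.12, adjusted p = 0.0272).

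Of 23 genes of the JAK-STAT chain and the remaining SOCS family, 10 were higher and 6 lower in wt, 12 and 4 in MK2-/- and 12 and 8 in MK2/3-/-, with medians of 0.43, 0.45 and 0.70 (12 and 3, 12 and 3, and 14 and 5 under the other scaling). Cish, a SOCS family gene, rose by 4.81 (SE 0.51) in wt and 6.34 (SE 0.47) in MK2-/-. In MK2/3-/- medium Cish was not well above background on any of 3 arrays, so its rise there is given as at least 113-fold, the mean of the LPS arrays against the lowest measurable signals of the medium arrays. Jak2, the kinase that SOCS1 and SOCS3 inhibit, rose by 3.86 (SE 0.23), 3.93 (SE 0.21) and 3.74 (SE 0.23). Between genotypes under LPS, Il6st, the shared receptor chain of the IL-6 family, stood at -1.23 in MK2/3-/- against wt (adjusted p = 0.0378) and Il10ra, the IL-10 receptor, at 0.70 (adjusted p = 0.0255), a split of 1 higher and 1 lower that was 0 and 3 under 75th percentile scaling, and Socs5 (-1.53, adjusted p = 0.00956) and Ifnar1 (-0.82, adjusted p = 0.02) were lower in MK2/3-/- than in MK2-/-.

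Of 20 other negative regulators, 7 were higher and 7 lower in wt, 4 and 6 in MK2-/- and 6 and 7 in MK2/3-/-, with medians of -0.38, -0.37 and -0.42 (8 and 5, 7 and 6, and 10 and 7 under the other scaling). Inpp5d, the phosphatase SHIP1, fell with changes of -4.72 (SE 0.36), -5.48 (SE 0.33) and -5.84 (SE 0.36), while Zc3h12a, the ribonuclease Regnase-1 that degrades cytokine mRNAs, rose by 3.70 (SE 0.28) in wt and 4.70 (SE 0.26) in MK2-/-. The mean of Zc3h12a in MK2/3-/- was 11.89 with LPS against 8.38 in medium. Tnfaip8l2, the gene of TIPE2, changed by -3.79 (SE 0.29) in MK2/3-/-. Its mean was also lower with LPS in wt (11.83 against 13.5) and in MK2-/- (11.08 against 13.94). Tnfaip8l2 and Pdlim2, a ubiquitin ligase gene acting on the NF-kB subunit p65, were lower in MK2/3-/- LPS than in wt LPS (-2.08, adjusted p = 1.35e-04 and -2.42, adjusted p = 2.20e-04) and lower than in MK2-/- LPS (-1.33, adjusted p = 0.00308 and -2.05, adjusted p = 9.20e-04). Of the 74 genes of the 4 lists together, 4 (5.41%) passed between MK2-/- and wt under LPS, where 11.6% of all genes did, and 9 (12.2%) between MK2/3-/- and wt, where 23.6% did, with 3 higher and 1 lower in the first and 3 higher and 6 lower in the second. Under 75th percentile scaling these became 8 (3 higher, 5 lower) and 18 (2 higher, 16 lower). Over all 22383 genes that scaling passed 2974 as higher and 1743 as lower in the first comparison and 4789 and 3363 in the second.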

How the data were processed

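RNA of 22 samples was measured on 1-colour Agilent arrays. The deposited scanner files hold the processed signal intensity of each spot from Feature Extraction 11.0.1.1, which had already subtracted the background. A further table deposited by the authors holds log2 values, quantile normalised and median-centred in GeneSpring GX, which correlated with the values used here at r = 0.993 to 0.999 per array and served as an alternative. Here the log2 processed signal was quantile normalised over all arrays after control and marked spots were left out, and spots of a probe were averaged. Of 55681 probes, 28103 stayed in, those with a RefSeq or GenBank accession and a signal well above background on 3 or more arrays. Probes were joined to genes by accession, and 18375 of the 22383 genes tested had a symbol.

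limma 3.58.1 in R 4.3.3 fitted the 6 group means in 1 model with 12 comparisons, and p-values were adjusted over all genes tested by the Benjamini-Hochberg method. Signal over background and the number of arrays limit the precision. Values given for other probes come from the same fit over all probes kept. The text names all 9 genes and their probes, the 3 genes most correlated with a member that passed between LPS-treated genotypes, of each pathway list the 2 passing genes with the largest change in a comparison described, and the targeted genes. The members and the lists were chosen with earlier results of these data known. The code was tested on simulated data. Alternatives covered scaling, background correction, the filter, the probe chosen, array weights, the arrays in the fit, a block on the replicate number, the methods' t-test and leaving out arrays. Same-numbered arrays of a genotype deviated together (r over 0.1) in 7 of 10 pairs, and arrays sharing a letter in the authors' array names likewise in 7 of 10. Since not every pair did, the main fit paired no samples, and both were tried as a block. This does not show that the arrays were unpaired. The low Y-linked signal fell on replicate 3 of MK2-/- in both medium and LPS. Labelled ages matched by replicate number in MK2-/- but differed at replicate 3 of wt and of MK2/3-/-. By letter, with the letters taken in replicate order, the ages matched in every pair of every genotype. The labels thus allow a pairing of medium and LPS arrays that the main fit left out. Whether arrays shared an animal was not tested. Promoter sequences are those of RefSeq on GRCm38.p6, and 8 of the 9 members had an entry.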

Additional observations from a re-analysis of the deposited data

Results flagged for a closer look

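In the 36 sets of 4 arrays tested, 1 array lay far from the other 3 in 4 cases by Dixon's test at its 95% critical value, a test that chance alone passes in about 5% of sets. Socs1 was 9.68 in wt medium replicate 4 against 7.38 in the nearest array of the group, a gap of 0.918 of the group's range. The other 3 were in MK2/3-/- LPS replicate 3. Tnfaip3 was 16.23 there against a nearest value of 16.61 (0.867 of the range), Tollip was 11.89 against 11.63 (0.872), and Socs2 was 6.09 against 7.61 (0.844).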

How the results depend on the processing

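With LPS, 7 to 8 members passed in each genotype leaving out 1 array at a time. With 75th percentile scaling 9 passed in MK2-/-, where Tollip and Socs2 were gained. With the probe that rose most in wt, Cyld no longer passed in any genotype, Tollip was gained in MK2-/- and MK2/3-/-, and Socs2 was gained in MK2/3-/- (1.28, adjusted p = 0.0475). No alternative changed a member's call between MK2/3-/- and wt in medium or in the differences of the LPS response. Between MK2-/- and wt under LPS the count of members passing went from 0 to 1 with array weights (Irak3, 0.81, adjusted p = 0.0369) and to 1 with the methods' t-test before adjustment (Socs3). Between MK2/3-/- and wt under LPS it went from 0 to 3 with 75th percentile scaling (Tnip3, Irak3 and Tollip), to 1 with the probe that rose most in wt (Tollip), to 2 with the methods' t-test before adjustment (Socs1 and Socs3) and to 1 after Benjamini-Hochberg adjustment (Socs3), and was 0 to 1 leaving out 1 array, with Irak3 passing (-1.0, adjusted p = 0.044) without wt LPS replicate 3. Between MK2/3-/- and MK2-/- under LPS it went from 1 to 2 with the probe that rose most in wt, to 0 in a fit of only the groups compared and to 4 with the methods' t-test before adjustment, and was 0 to 1 leaving out 1 array. With the methods' t-test after adjustment the count was also 1, but it was Tnip1, and Irak3 did not pass (adjusted p = 0.197). The adjusted p of Irak3 there ranged from 0.00207 to 0.197 over the alternatives. Between MK2-/- and wt in medium it went from 0 to 1 with 75th percentile scaling, with normexp background correction, with no filter, with all non-control probes and with the methods' t-test before adjustment, to 3 with array weights, and was 0 to 1 leaving out 1 array, being 1 without wt medium replicate 1 or 2, MK2-/- medium replicate 1 or 4, or MK2/3-/- LPS replicate 3. Between MK2/3-/- and MK2-/- in medium it went from 0 to 1 with the methods' t-test before adjustment. With 75th percentile scaling the pathway genes that passed went from 4 to 8 (MK2-/- against wt under LPS), 9 to 18 (MK2/3-/- against wt under LPS) and 2 to 4 (MK2/3-/- against wt in medium), and the other probes of members from 1 to 0 (MK2/3-/- against MK2-/- under LPS). Passes over all genes also changed with that scaling. For MK2/3-/- against wt they went from 2150 higher and 3131 lower to 4789 and 3363 under LPS, and from 335 and 117 to 3839 and 410 in medium. For MK2-/- against wt they went from 1013 and 1582 to 2974 and 1743 under LPS, and from 1277 and 697 to 4080 and 774 in medium.

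The sign turned with the probe that rose most in wt for Cyld with LPS in wt (0.09) and MK2-/- (0.18), for Tollip under LPS in MK2/3-/- against MK2-/- (0.52) and against wt (0.86), and for Tnip1 in MK2-/- against wt under LPS (-0.01). With 75th percentile scaling it turned for Tnfaip3 (-0.06) and Tnip1 (-0.04) in MK2-/- against wt under LPS, and the cause of these changes was not tested. A block on the replicate number, or on the letter in the authors' array names, left the member counts at 8, 7 and 7 with LPS and at 0, 0 and 1 between genotypes under LPS, with correlations of -0.0857 to 0.362 over 10 same-numbered pairs and -0.0857 to 0.419 over 10 pairs by letter. Without wt medium replicate 4 and both MK2-/- replicate 3 arrays, a setting chosen after seeing the data, the counts were again 8, 7, 7, 0, 0 and 1, with Irak3 at -1.16 (adjusted p = 0.0352).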
